A study of Drosophila melanogaster with 7 samples.

Results

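The cytochrome P450 genes of Drosophila melanogaster were followed in dissected brains of control flies and after knockdown of circMbl, the circular RNA of the muscleblind locus. Members were all gene symbols made of Cyp, a clade number, a letter code and a gene number on an intact line of the deposited table, which gave 71 of 14476 genes. A further 11 such symbols stand on lines that were not analysed here. P450 genes with other names, such as dib, sad and spo of ecdysone synthesis, are not among them. Of the 71 members, 35 had a mean of at least 10 normalized counts (reads scaled by the authors to make libraries comparable) over the 7 libraries and entered the tests across genes, and 36 had a lower mean and are described by their values.

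Cytochrome P450 enzymes are heme proteins that insert oxygen into their substrates, with electrons passed to them by a reductase in the endoplasmic reticulum or by a ferredoxin in mitochondria. Insects use some of them to make and to inactivate the moulting steroid ecdysone, others to make the hydrocarbons that waterproof the cuticle, and many, above all of the Cyp4, Cyp6 and Cyp9 clades, are studied for the breakdown of insecticides and plant toxins. In flies, detoxifying P450 genes are known to be active in fat body, Malpighian tubule and gut, and some in support cells of sense organs.

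All flies carried Actin-GAL4, a driver active in nearly all cells, so the hairpin was not restricted to the brain. The 2 knockdown libraries came from flies with UAS-sh-circMbl, and the 5 control libraries from flies with UAS-sh8MM, a hairpin with 8 mismatches. Library titles name day 3 for both groups, and no label gives a sex, a second knockdown line or the number of brains in a library. The libraries, made after CEL-seq2, are bulk and read transcript 3' ends. The 7 libraries held between 3260649 and 5546121 reads in the gene lines used. Since no label ties a library to animals of its own, the spread behind each p-value is that of these libraries and may be technical.

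Titles give code L7 to control replicates 1, 4 and 5, L5 to control replicates 2 and 3, and L2 to both knockdown libraries. These are called lane codes here, though no label says what they stand for. Titles of both knockdown libraries also hold another number in the form of a date. What these codes stand for and genotype cannot be told apart. Control replicates 2 and 4 share title number 3, and control replicates 3 and 5 share title number 2. Whether same-titled controls came from the same RNA is not given; if they did, there were 3 control samples and not 5. Reads of the linear mbl transcript, which do not measure the circle, were 3323, 3602, 4122, 3341 and 3430 normalized counts for control replicates 1 to 5, against 2769.7 and 2304 for knockdown replicates 1 and 2 (limma, adjusted p = 0.0694). The 6 neuronal markers (elav, nSyb, brp, Syt1, Csp and cac) were read in every library, with sums of 20629 to 25005 normalized counts in controls against 32679 and 29081 after knockdown, while 5 gut markers summed to at most 56.4.

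After circMbl knockdown 7 of the 35 P450 genes tested had changed, 1 to a higher and 6 to a lower level (limma over all 7287 genes, adjusted p under 0.05). Cyp6a20, whose level in antennal support cells has been tied to male aggression, was 2.75-fold higher. Cyp18a1, which encodes the hydroxylase that inactivates ecdysteroids, was 2.13-fold lower, and Cyp4p2, Cyp12b2, Cyp28a5, Cyp4e2 and Cyp9f2 were also lower. Over all genes tested, 6.11% were called (445), 3.47% as higher (253) and 2.63% as lower (192). These are bulk values, in which fewer cells of a type and less RNA per cell cannot be told apart.

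The median log2 difference of the 35 P450 genes was -0.15, beside -0.02 over all genes tested, and 24 of them had a negative and 11 a positive value. Over all 7287 genes tested 3783 values were negative and 3504 positive. By clan, the calls were 1 higher and 2 lower of 20 genes of clan CYP3, which holds the Cyp6, Cyp9 and Cyp28 clades among others, and 2 lower of 10 genes of clan CYP4. One of the 3 mitochondrial genes tested was lower (Cyp12b2), and so was 1 of 2 genes of clan CYP2 (Cyp18a1). Within clades, 1 of 13 tested Cyp6 genes passed (Cyp6a20), and 2 of 9 Cyp4 genes did (Cyp4p2 and Cyp4e2); no difference between clades was tested. Both knockdown libraries lay outside the range of the 5 controls for 13 of the 35 genes (4 above and 9 below), a share of 37.1% beside 32.4% over all genes tested (16.6% above and 15.9% below). Among the 4 above, Cyp12c1 reached the mean of 10 only through its knockdown values.

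The count of 7 needed both knockdown libraries. With 1 of them left out, the lone library being assumed to vary like the rest, the 7 genes lost their calls, as did nearly all other genes called. Their direction could not change, since for each of the 7 both knockdown libraries lay on 1 side of all controls. Without control replicate 4 the count was 4, and without control replicate 5 it was 3, with 177 and 133 calls over all genes. Without control replicate 1 it was 5, and 203 over all genes. Against the L7 controls alone 12 of the 35 passed, where 33.1% of all genes did, and with the lane codes of the controls as groups 11 passed, where 27.7% of all genes did; these shares are near the background. With same-titled controls averaged 9 passed, beside 17.9% of all genes.

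**Figure D1:**
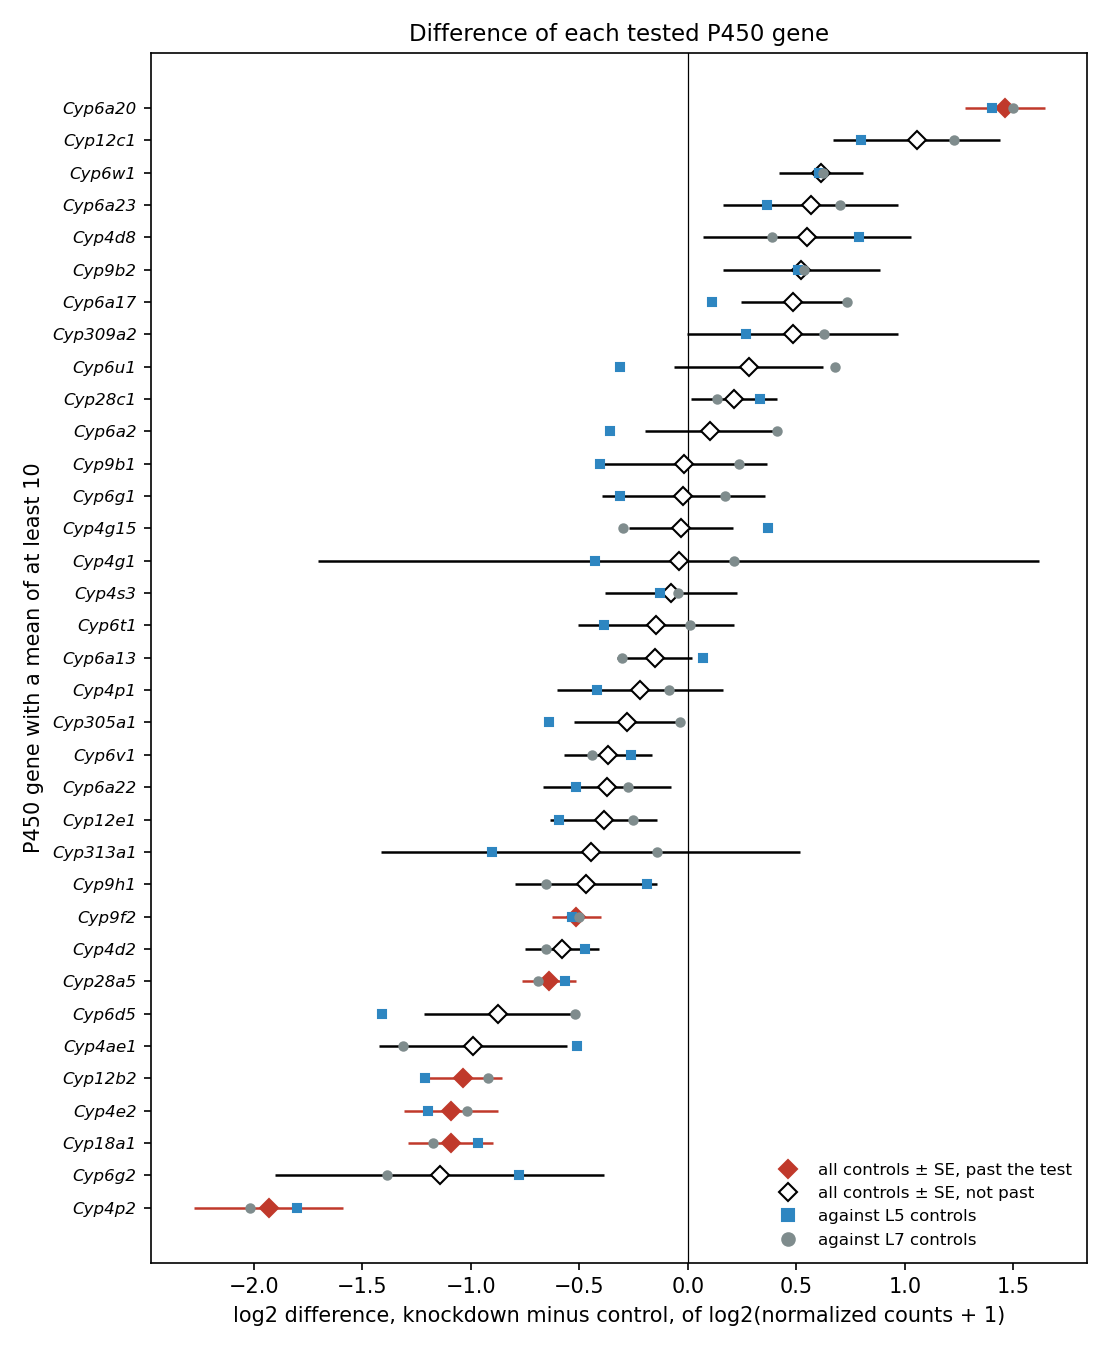
Log2 difference (knockdown minus control, of log2 normalized counts + 1) of the 35 P450 genes tested, ordered by size. Diamonds with bars are the estimate against all 5 controls ± SE (red where adjusted p is under 0.05), squares and circles the differences from L5 and from L7 controls; Cyp6a20 at 1.46 is the only red diamond above 0, and Cyp4p2 at -1.93 is the lowest.

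Summed marker levels of fat body, glia and hemocytes did not overlap between the groups, and those of muscle did; no sum was tested. The 7 fat body markers measured (yolk protein genes, Lsp2, fit, tobi and Fbp1), none at 0 in every library, summed to 14945 to 35929 normalized counts in controls against 50224 and 44065 in knockdown replicates 1 and 2. The 7 glial markers measured (alrm, moody, wrapper, Gs2, nrv2, Mdr65 and Gli), none at 0 in every library, summed to 56856 to 71358 in controls against 74999 and 82087 after knockdown. The 6 hemocyte markers, none at 0 in every library, summed to 713.8 to 854.8 against 686.3 and 531.1. Muscle markers, 8 measured and none at 0 in every library, summed to 1113 to 1950 against 912.4 and 1230.2. Of the tested list genes, 3 of 6 fat body and 1 of 6 neuronal genes rose, 2 of 8 muscle genes fell, and 0 of 7 glial and 0 of 4 hemocyte genes passed. The part of such tissue in the P450 differences was not tested.

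Cyp6a20 (FBgn0033980, 2R from 14882118 to 14884046; coordinates here are of BDGP6, which is dm6) had levels of 45.1, 60.4, 51, 55.9 and 55.1 normalized counts in controls 1 to 5, against 170.3 and 129.1 in knockdown replicates 1 and 2. The knockdown libraries were more than 2 times as high as any control, while the controls stayed within a narrow band. Controls averaged 53.5 ± 5.76 (SD, n = 5) against 149.7 ± 29.1 (SD, n = 2) after knockdown, a log2 difference of 1.46 ± 0.185 (SE) with a limma adjusted p of 0.00659. The difference was 1.402 against L5 and 1.499 against L7 controls, and it passed in 17 of the 19 alternatives tried, the exceptions being those without a knockdown library. The antennal markers Orco, lush, Obp83a, Obp28a and Obp83b, which would mark attached olfactory tissue, summed to 24.9 to 410.7 normalized counts in controls against 276.8 and 263.1 after knockdown, so their ranges overlapped. The part of such tissue in the level of Cyp6a20 was not tested.

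Cyp6a20 lies in a run of 9 P450 genes on 2R from 14871366 to 14903095, each within 10000 bases of the next. None of the other 8 passed. Cyp6a17, a gene needed for temperature preference, held 73.1, 112.5, 113.8, 71.6 and 74.9 normalized counts in controls against 107.9 and 138.9, and differed between L5 and L7 controls (limma, adjusted p = 0.0119). Cyp6a23 held 7 to 19.8 against 26 and 18.3, with overlap, and Cyp6a22 held 12.3 to 20.1 against 11.7 and 11, just below the controls (limma, adjusted p = 0.471).

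The 5 remaining members of the run had means under 10. Cyp6a9 (2.33 to 10.1 against 13 and 13.4) and Cyp6a8 (1.56 to 8.95 against 10.4 and 11) were above all controls in both knockdown libraries at these low counts. In a fit with no filter on the mean their log2 differences were 1.05 and 1.12, and neither passed (limma, adjusted p = 0.295 and 0.282). Cyp6a19, which overlaps Cyp6a9 on the other strand, never exceeded 0.915 normalized counts. Neighbouring copies are similar in sequence, and reads could have been split between them by counting that is not given in the sources used here.

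**Figure D2:**
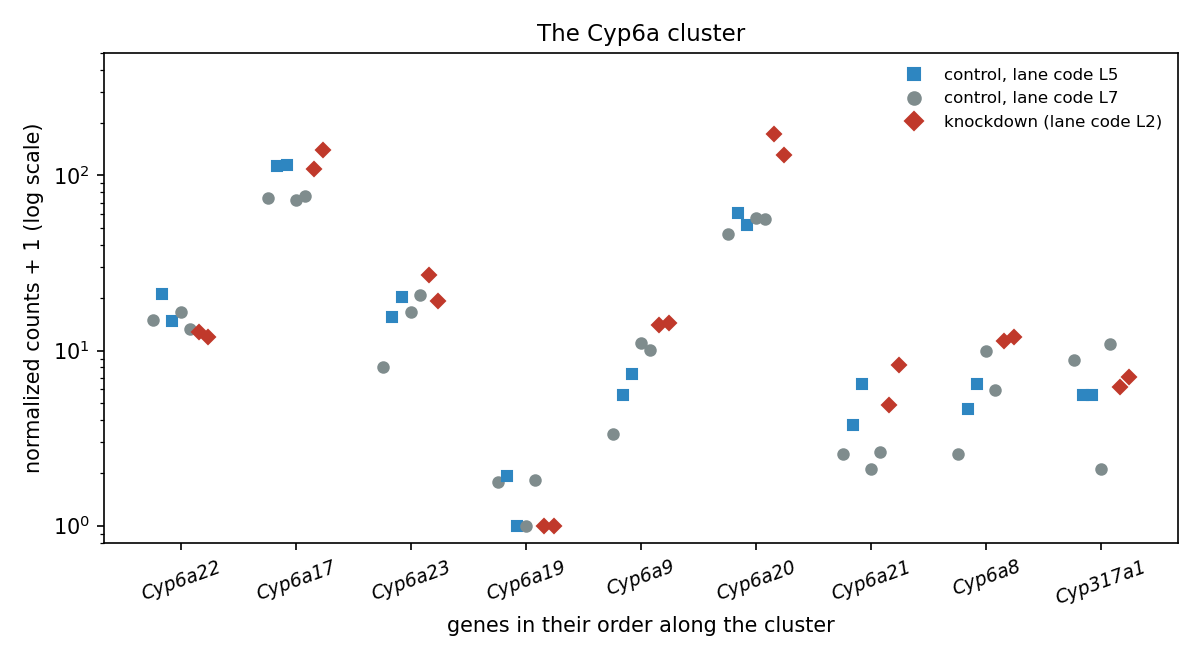
Normalized counts + 1 (log scale) of the 9 genes of the run around Cyp6a20, in their order along 2R; each point is 1 library. The knockdown diamonds of Cyp6a20 (170.3 and 129.1 normalized counts) stand clear of its controls (45.1 to 60.4), while those of Cyp6a17 overlap the L5 controls.

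Cyp18a1 (FBgn0010383, X from 18688538 to 18693042) had 84, 86.9, 73.7, 99.6 and 95.5 normalized counts in controls 1 to 5, against 48.1 and 34.1 in knockdown replicates 1 and 2. Both knockdown libraries were below the lowest control. Controls averaged 87.9 ± 10.1 (SD, n = 5) against 41.1 ± 9.89 (SD, n = 2) after knockdown, a log2 difference of -1.09 ± 0.196 (SE) with a limma adjusted p of 0.0192. It passed against L5 (-0.97) and against L7 controls (-1.18), and without control replicate 5 it did not pass (adjusted p = 0.0542). Nor did it pass with the number in titles or in source names as a replicate block (limma, adjusted p = 0.0794 and 0.0817).

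Genes that make ecdysone were read at the limit of detection in these brains. Of 8 synthesis genes listed, 7 were on intact lines and none reached a mean of 10, so none was tested; the highest single value was 6.09 normalized counts, for the mitochondrial P450 gene dib in knockdown replicate 2. Of 23 ecdysone response genes listed, 21 were on intact lines and 19 were tested, of which 2 rose and 17 did not pass (6 of 19 at an unadjusted p under 0.05, which 25.5% of all genes had). Their median log2 difference was 0.07, beside -0.02 over all genes tested, with 11 positive and 8 negative values. The 2 calls made up 10.5% of the 19, beside 6.11% over all genes tested.

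Both risers encode nuclear receptors that ecdysone induces. Hr4 held 74.7, 78.7, 92, 60.4 and 48.6 normalized counts in controls against 209.3 and 181.5 after knockdown, a log2 difference of 1.48 ± 0.241 (limma, adjusted p = 0.0144). Eip75B held 2617, 2041, 2547, 2701 and 2661 against 4877 and 4051, a log2 difference of 0.83 ± 0.151 (limma, adjusted p = 0.02). For both genes every knockdown value was above every control value. Other genes of the list, br (-0.03), Eip74EF (-0.02) and Eip78C (-0.18), did not pass (limma, adjusted p = 0.92, 0.97 and 0.462).

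The ecdysone receptor gene EcR had a log2 difference of 0.07 (limma, adjusted p = 0.79) and its partner usp one of 0.29 (0.32). DopEcR, which encodes a membrane receptor for dopamine and ecdysteroids, had -0.57 with an adjusted p of 0.0521. The nuclear receptor gene ftz-f1 had 0.39 with an adjusted p of 0.0809. Eip55E, a gene of cysteine metabolism, had 0.96 with 0.0861 and differed between L5 and L7 controls (adjusted p = 0.04). Without either knockdown library 0 of the list passed, without control replicate 3 the count was 4, and against L7 controls alone it was 8 of 19, beside 33.1% of all genes.

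Cyp4p2 (FBgn0033395, 2R from 9237512 to 9239831) showed the widest fall, at low counts. Controls 1 to 5 held 33.4, 19.2, 20.9, 25.7 and 14.8 normalized counts, and knockdown replicates 1 and 2 held 5.2 and 4.87, which stand for 4 reads each. No control came near the knockdown values. The knockdown mean was 5.04, so Cyp4p2 reached the mean of 10 only through its controls. The log2 difference was -1.93 ± 0.344 (SE) with a limma adjusted p of 0.0186, and it did not pass by voom (adjusted p = 0.0649). Of its 2 tandem neighbours, Cyp4p1 held 7.78 to 19 against 13 and 9.74, with overlap, and Cyp4p3 held 0.823 to 6.4 against 0 and 2.44, too few reads to test. Cyp4p2 overlaps hig, a gene of a synaptic matrix protein, on the other strand; hig stood at 3301 to 3879 normalized counts in controls against 2871 and 2633 after knockdown (limma, adjusted p = 0.115). Whether reads were counted by strand is not given in the sources used here, so reads of such pairs cannot be told apart.

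Cyp12b2 (FBgn0034387, 2R from 18754995 to 18757083), of the mitochondrial clan, held 141.5, 193, 157.5, 153.3 and 132.5 normalized counts in controls against 66.3 and 84 after knockdown. The groups did not overlap. The log2 difference was -1.04 ± 0.183 (SE) with a limma adjusted p of 0.0181. With the title number as a replicate block it did not pass (limma, adjusted p = 0.056). The lipid droplet gene Jabba, which overlaps it on the other strand, held 135.3 to 239.4 against 178.1 and 126.7, with no such separation (adjusted p = 0.752).

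Cyp4e2 (FBgn0014469, 2R from 8444560 to 8447164) held 153.2, 264.3, 203.9, 256.2 and 219.8 normalized counts in controls against 93.6 and 108.4 after knockdown. All controls were above both knockdown libraries, control replicate 1 by the least. It also holds the microRNA gene mir-986 on its own strand. The log2 difference was -1.09 ± 0.216 (SE) with a limma adjusted p of 0.0259. Without control replicate 4 or 5 it did not pass (adjusted p = 0.0568 and 0.0674).

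The other calls were of the 2 P450 genes with the highest means. Cyp9f2 (FBgn0038037, 3R from 12403340 to 12406028) held 1182, 1236, 1250, 1202 and 1253 normalized counts in controls against 804.5 and 912.3 after knockdown. The 5 controls, from both lane codes, lay close together, and both knockdown libraries were well below them. The log2 difference was -0.51 ± 0.113 (SE) with a limma adjusted p of 0.0346.

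Cyp28a5 (FBgn0028940, 2L from 13977302 to 13979569) belongs to a clade whose member in the cactus fly Drosophila mettleri is induced by host alkaloids. It held 566.2, 507.7, 510.8, 535.9 and 563 normalized counts against 319.7 and 369.1, again with no overlap. The log2 difference was -0.64 ± 0.123 (SE) with a limma adjusted p of 0.0236. These 2 genes changed by the least of the 7, and each lost its call without control replicate 1, 4 or 5 (adjusted p from 0.0548 to 0.0885); Cyp9f2 also lost it with quantile normalization (adjusted p = 0.0524).

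**Figure D3:**
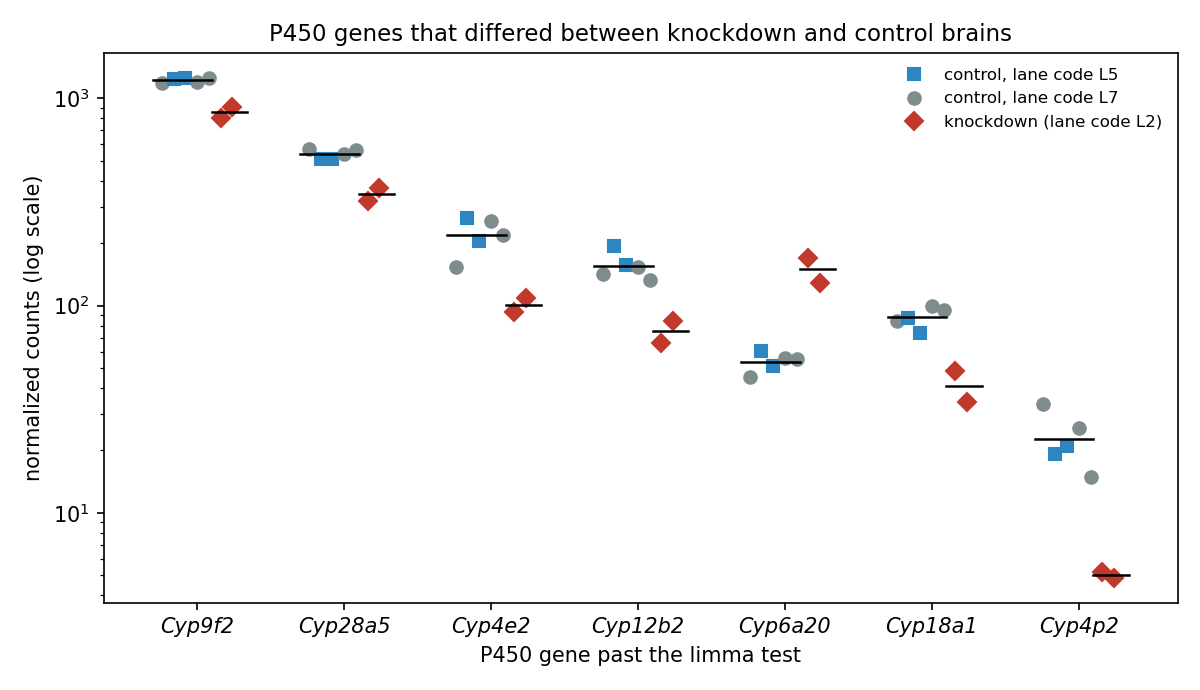
Normalized counts (log scale) of the 7 P450 genes past the limma test; each point is 1 library and each line the mean of its group (5 controls, 2 knockdown). Cyp6a20 is the gene whose knockdown libraries lie above its controls, and the knockdown libraries of the other 6 genes lie below theirs.

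Cyp9f2 held the most P450 reads in every library, from 20.2% to 25.1% of them, and the leading 5 members together held 55.4% to 64.0%. Scaled by library totals, all P450 reads together made up 1090.5 to 1409.9 CPM in controls against 913.3 and 1119 CPM in knockdown replicates 1 and 2, which overlapped. On the authors' normalization the sums were 4704 to 5278 normalized counts against 3871 and 4510.3, which did not overlap; neither sum was tested. These are shares of reads counted at transcript ends, not levels per length.

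Of the 12 members with the highest means, 8 did not pass. Cyp6w1 held 248.9, 358.6, 314.1, 418.5 and 350.7 normalized counts against 478.3 and 545.7. Both knockdown libraries were above all controls, with a log2 difference of 0.61 ± 0.193 (limma, adjusted p = 0.0895). Cyp6g1, the gene whose overexpression gives resistance to DDT, held 44.3, 113.4, 115.6, 136.5 and 89.7 against 87.1 and 97.4, inside the range of the controls. It overlaps Cyp6g2 on the other strand.

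Cyp6d5 held 139.2, 339.4, 379.7, 209.2 and 246.9 normalized counts against 130 and 138.9. Its knockdown libraries lay just below the lowest control, an L7 library, and far below the L5 controls. The log2 difference was -1.41 against L5 and -0.52 against L7 controls, and over all controls it did not pass (limma, adjusted p = 0.147). The gene rdx, on the other strand at this place, differed between lane codes in the other direction (-1.06, adjusted p = 6.5e-05). Of the genes with smaller counts, Cyp4d2 (81 to 111.9 against 66.3 and 63.3, adjusted p = 0.0755), Cyp12c1 (4.48 to 11 against 18.2 and 14.6, adjusted p = 0.127) and Cyp4ae1 (11.8 to 35.8 against 6.5 and 12.2, adjusted p = 0.19) came closest to the threshold. Cyp12c1 had a mean of 10.1 and entered the test through its knockdown values alone, since the mean of its controls was 7.59.

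Lane code separated control libraries of 1 genotype in several P450 genes. In a fit of 3 groups (knockdown, L5 controls, L7 controls), L5 and L7 controls differed in 7 of the 35 genes (20%, beside 28.2% over all genes tested), 5 higher in L5 and 2 higher in L7. Cyp4g15, a relative of the hydrocarbon gene Cyp4g1 that is known from the nervous system, held 642.4, 501.3 and 574.5 normalized counts in the L7 controls and 359.5 and 357.8 in the L5 controls. Its knockdown libraries, at 448.4 and 478.7, fell between the lane codes. The log2 difference of L5 minus L7 controls was -0.67 ± 0.114 (limma, adjusted p = 0.0016).

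Cyp6u1 held 36.6, 32.4 and 33.7 normalized counts in the L7 controls and 68.6 and 69.2 in the L5 controls, with 53.3 and 57.2 in the knockdown libraries. Cyp6a2, a gene known for DDT metabolism, held 33.4, 32.4 and 43.6 in L7, 65.9 and 59.2 in L5, and 48.1 and 48.7 in the knockdown libraries. For both genes the knockdown libraries stood between the lane codes. Each overlaps another gene on its own strand (Ufsp1 and Epac), with which reads may be shared. The other genes of this kind were Cyp6d5, Cyp6a17 and Cyp305a1, higher in L5, and Cyp6a13, higher in L7.

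The 7 genes called between knockdown and control had log2 differences between L5 and L7 controls of at most 0.292 in size (limma, adjusted p from 0.192 to 0.791). The test over all controls favours such genes, since a difference between lane codes widens its control spread. In the fit of 3 groups, which uses the same libraries, all 7 passed against L5 and against L7 controls in the same direction, and no other P450 gene did (20% of the 35 tested, beside 11.1% over all genes tested). There 9 P450 genes passed against L5 controls (21.6% over all genes) and 13 against L7 controls (33.6% over all genes).

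A few members varied far more within a group than between groups. Cyp6g2, a gene active in the corpora allata, the gland of juvenile hormone, held 302.6, 135.4, 244.9, 235 and 302.9 normalized counts in controls, 29.9 in knockdown replicate 1 and 367.8 in knockdown replicate 2. The knockdown libraries were the lowest and the highest of the 7, and the log2 difference of -1.14 (limma, adjusted p = 0.383) was 0.645 without knockdown replicate 1. A gene of juvenile hormone synthesis, jhamt, held 26.4, 11, 13.7, 15.7 and 24.7 in controls against 2.6 and 29.2 in the same knockdown libraries. Both genes were thus lowest in knockdown replicate 1 and highest in knockdown replicate 2. How much of the gland stayed on each set of brains was not tested.

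Cyp4g1, which makes cuticular hydrocarbons in oenocytes and is among the most abundant P450 transcripts of whole flies, held 24.9, 11, 122, 1.12 and 270.8 normalized counts in controls against 84.5 and 8.53 after knockdown. Its 3 highest values were those of control replicates 3 and 5 and knockdown replicate 1, which share title number 2, across lane codes and genotypes. The elongase gene eloF, another oenocyte marker, had reads in the same 3 libraries, at 1.82, 1.65 and 1.30 normalized counts, and was at 0 in the other 4. The part of oenocytes in the level of Cyp4g1 was not tested.

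Cyp313a1 followed title number too, here number 3. Both patterns were picked out after the values were seen. It held 54, 44.8 and 40.2 normalized counts in control replicates 2 and 4 and knockdown replicate 2, all with title number 3, and between 3.9 and 11.8 in the other 4 libraries. The rhodopsin gene ninaE, a photoreceptor marker, held 1840, 2072 and 1920 in the libraries of title number 3 and 445.2 to 599.2 in the rest. Pde6, which overlaps Cyp313a1 on the other strand, held 753 to 912.3 in controls against 869.5 and 716.2 after knockdown, without that split. The part of retina in the level of Cyp313a1 was not tested.

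**Figure D4:**
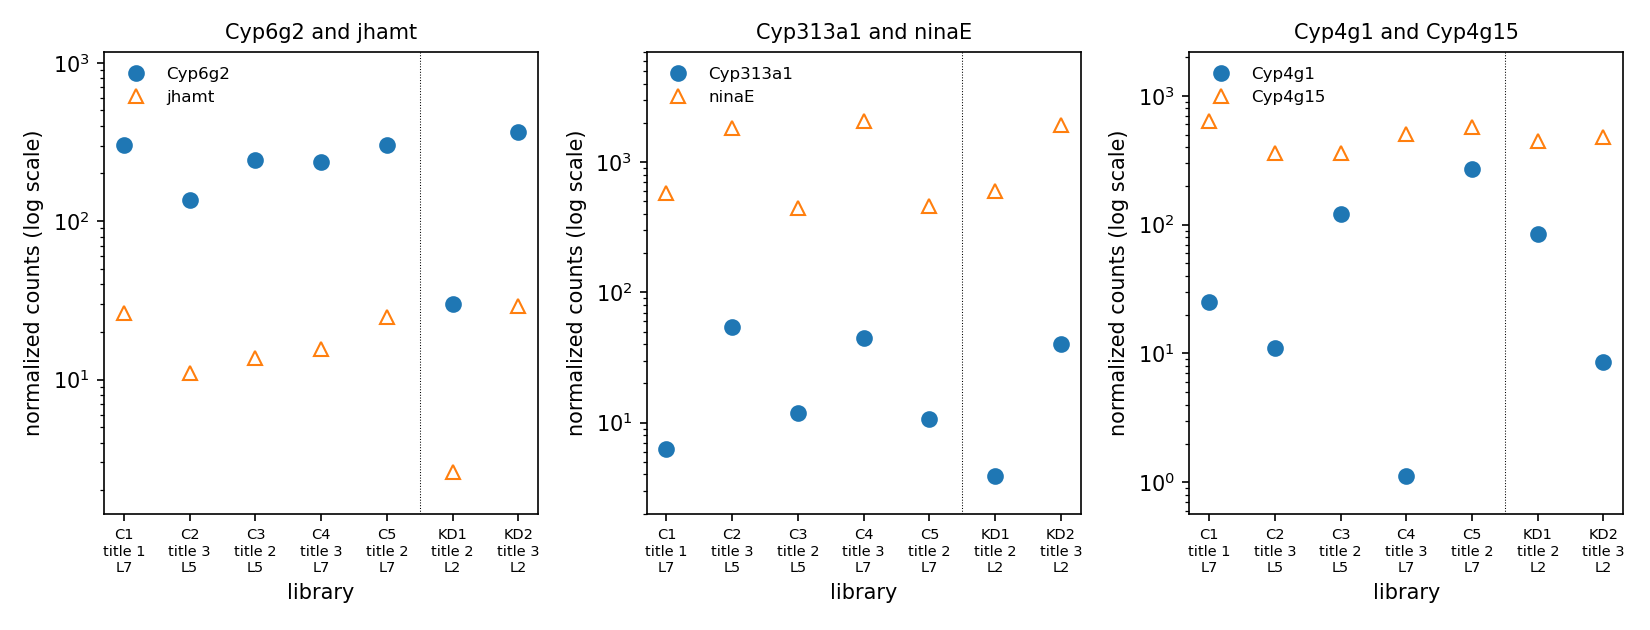
Normalized counts (log scale) in each library (C, control; KD, knockdown; with title number and lane code) of Cyp6g2 and jhamt, of Cyp313a1 and ninaE, and of Cyp4g1 and Cyp4g15. Cyp6g2 and jhamt are lowest in knockdown replicate 1 (29.9 and 2.6), and Cyp313a1 and ninaE are high in the 3 libraries of title number 3; Cyp4g1 is highest in those of title number 2.

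The 36 members with a mean under 10 held 5 of the 6 Cyp313 genes and all clades of 1 gene other than those of Cyp18a1 and Cyp305a1. Of 21 Cyp6 genes 13 reached the mean of 10, as did 9 of 17 Cyp4, 4 of 5 Cyp9 and 3 of 5 Cyp12 genes. Cyp12c1 (10.1) stood just above that mean, and Cyp4e3 (8.41) just below. Of the 32 with any read, 6 had groups that did not overlap (18.8%, beside 12.7% of all genes with a mean under 10), 5 higher after knockdown (Cyp6a9, Cyp6a8, Cyp49a1, Cyp9c1 and Cyp312a1) and 1 lower (Cyp4aa1). Cyp312a1 had 1 read in control replicate 5 and 1 in each knockdown library, so its separation from that control came from scaling alone. In single libraries 8 to 14 of the 71 members had no read, and Cyp313a2, Cyp6a16, Cyp4ad1 and Cyp12d1-d had none in any. A count of 0 allows up to 3 reads, or 2.33 to 3.90 normalized counts depending on the library, counting error only. Cyp12d1-d and Cyp12d1-p are near-identical copies, between which reads may not have been assigned.

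Of the partners that P450 enzymes depend on, those measured gave no call. Cpr, the gene of the reductase in the endoplasmic reticulum, was listed but had no intact line and was not analysed. Of 15 genes of electron transfer and heme metabolism listed, 12 were tested and none passed limma, with a median log2 difference of 0.13. At an unadjusted p under 0.05 there were 6 of the 12, beside 25.5% of all genes, and 0 passed by voom. Fdx2, a mitochondrial ferredoxin gene, had -0.56 (limma, adjusted p = 0.0712) and Alas, the gene of the first step of heme synthesis, -0.45 (0.0929). Cyt-b5-r, a cytochrome b5 reductase gene, had 0.94 (0.0922), with 208.4 to 515.9 normalized counts in controls against 626.5 and 646.8 after knockdown. For all 3 genes the groups did not overlap. Among the 12 tested, 4 lay above all controls in both knockdown libraries and 4 below, beside 16.6% above and 15.9% below over all genes. With same-titled controls averaged 4 of the 12 passed (17.9% of all genes), and against L7 controls alone 6 did (33.1% of all genes); leaving out control replicate 2 or 3 gave 1.

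Regulators of the response to foreign compounds gave no call either. Of 7 listed, 5 were tested and none passed limma (2 at an unadjusted p under 0.05, beside 25.5% of all genes, and 0 by voom). Hr96 had no intact line and ss had a mean under 10, so neither was in that test. The transcription factor gene cnc, the fly Nrf2, had a log2 difference of 0.06 (limma, adjusted p = 0.794). Hnf4, a nuclear receptor gene of lipid metabolism, had 0.63 (0.0509), and tgo, whose protein is the common partner of bHLH-PAS factors, -0.58 (0.0754). Keap1, the inhibitor of cnc, differed between L5 and L7 controls (-0.99, adjusted p = 0.000782). Without control replicate 2 or 3 the count was 1, and against L7 controls alone it was 3 of 6, beside 33.1% of all genes.

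UDP-glycosyltransferases, which conjugate products of P450 enzymes, were taken as all 17 symbols that start with Ugt. One of these, Ugt, encodes a folding sensor of the endoplasmic reticulum and not a detoxifying enzyme. Of the 9 tested none passed limma (1 at an unadjusted p under 0.05, beside 25.5% of all genes, and 0 by voom). A negative log2 difference was found for 7, and for 3783 of all 7287 genes tested. Ugt35b held 795.7, 818.7, 824.9, 715 and 727.7 normalized counts against 549.8 and 656.5, with a log2 difference of -0.37 (limma, adjusted p = 0.116).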

How the data were processed

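Brains were dissected and total RNA was sequenced as bulk CEL-seq2 libraries, per the labels' protocols. The submitters' processing notes list STAR and dm6. How reads were counted, by strand or not, and how they were normalized is not given in the sources used here. Deposited values are the authors' normalized counts, a signal in which all values of the intact lines were whole multiples of 1 step per library (100% within 0.001 of a read). Depths are sums of these steps. The 14476 intact lines were used, without 2139 misplaced lines, 1 line with a damaged name and 402 columns of no sample. All 71 members matched the Ensembl BDGP6 annotation by symbol.

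Values were compared as log2(value + 1) with limma 3.58.1 in R 4.3.3 (eBayes with trend), for genes with a mean of at least 10, with Benjamini-Hochberg adjustment over those genes and calls at an adjusted p under 0.05. Fold changes on this scale understate the change of low genes. The fit was tested on simulated data. Members, lists and alternatives were chosen with earlier results of these data known, and voom on whole reads, the count past both lane codes and the alternatives of the lane comparison were added after the data were seen. Named genes were 3 markers, all members past the test, the 12 with the highest means and the 5 others with the smallest p; of each list, those past the test and up to 3 others. Further genes were named after their values were seen. All 7 libraries were used as separate samples. Every pair differed by more than counting noise (median chi-square over genes of 0.953 or more, where noise gives 0.455), which does not show that they came from separate RNA. Pairs of 1 lane code stood at 0.953 to 1.27. An L5 with an L7 control gave 3.78 to 6.15, and a knockdown with a control library gave 3.04 to 4.44.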

Additional observations from a re-analysis of the deposited data

Results flagged for a closer look

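The level of Eip75B in control replicate 2, 2041 normalized counts, lay far below the other controls (2547 to 2701): its gap to the nearest of them was 0.766 of the range of the 5 controls. It was the 1 such value among 32 named genes, and chance sets apart about 1 in 20 groups of this size. None of the 18 named P450 genes had a control library set apart in this way.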

How the results depend on the processing

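The count of 7 P450 genes was 6 or 7 under another pseudocount, no filter, a mean of at least 50, quantile normalization, TMM factors and voom, and 9 with same-titled controls averaged or with L5 controls alone. It was 12 with L7 controls alone and 11 with lane codes as groups. Leaving out 1 library gave 0 to 7.

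For all genes the 445 became 1310 with same-titled controls averaged, 1084 with L5 and 2410 with L7 controls alone, 2019 with lane codes as groups and 807 past the threshold against both lane codes; leaving out 1 library gave 1 to 667.

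Numbers shared across groups in the labels were also used as a replicate block. Deviations of same-titled libraries correlated at -0.0291 to 0.14 and those of same source-name number at 0.102 and 0.14. With only 2 knockdown libraries, their deviations from the group mean mirror each other, so these correlations cannot decide whether the numbers pair libraries. The main test used no such block, although Cyp313a1, ninaE and Cyp4g1 followed the title number. With the replicate block by title number 2 P450 genes (Cyp6a20 and Cyp4e2), 51 of all genes and 0 ecdysone response genes passed; by source-name number 3 P450 genes and 120 of all genes did.

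The 2 ecdysone response calls became 5 with averaged controls or L5 controls alone, 8 with L7 controls alone and 6 with lane codes as groups (0 to 4 leaving out 1 library). For averaged, L5, L7 and lane-group controls, redox and heme genes gave 4, 2, 6 and 7 calls in place of 0 (0 to 1 leaving out 1 library). Xenobiotic regulators gave 2 with averaged controls, 3 with L7 controls, 2 with lane codes as groups and 1 with a mean of at least 50 or quantile normalization (0 to 1 leaving out 1 library), and UDP-glycosyltransferases 1, 3 and 1 with L5, L7 and lane-group controls. The causes were not tested.

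Of 336 values of named P450 genes under the alternatives, 16 changed sign, all in genes not called. Cyp4g15 had log2 differences of 0.0307 with quantile normalization, 0.368 with L5 controls, 0.0352 with lane codes as groups, 0.0784 with the title-number block, and -0.132 to 0.0784 leaving out 1 library. Cyp6g1 had 0.149 with averaged controls, 0.171 with L7 controls, 0.371 with the source-name block, and -0.287 to 0.114 leaving out 1 library. Cyp6a13 had 0.0691 with L5 controls. Leaving out 1 library gave -2.93 to 0.645 for Cyp6g2 and -0.491 to 0.00984 for Keap1, which had 0.356 with L5 controls. The planned tests by edgeR and DESeq2 were not run, since misplaced lines kept the deposited columns from being read as counts throughout; voom was run on reads recovered from intact lines. Depth limits members near 10 normalized counts.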

Other observations

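Of the 6 members with too few reads for the test whose groups did not overlap, the values of 2, chosen after they were seen, are given here. Controls 1 to 5 held 3.11, 11.9, 2.73, 5.59 and 7.41 normalized counts of Cyp4aa1, against 0 and 1.22 after knockdown. Cyp49a1, of the mitochondrial clan, held 2.33, 1.83, 7.28, 2.24 and 5.76 against 11.7 and 8.53. Both overlap other genes, Cyp4aa1 on both strands. In a fit with no filter on the mean neither passed (limma, adjusted p = 0.0832 and 0.206).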
